A study of Mus musculus with 12 samples.

Results

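The genes described here were 9 transcription factors of 3 families, the Nr4a orphan nuclear receptors Nr4a1, Nr4a2 and Nr4a3, the Krüppel-like factors Klf2 and Klf4, and the CCAAT/enhancer binding proteins Cebpa, Cebpb, Cebpd and Cebpe. They were matched by mouse symbol to 9 of the 56953 Ensembl genes in the tables, and each symbol had a single row with counts. RNA came from the bone marrow of 8-week-old female C57BL/6J mice carrying Rank cre/+;R26.eYFP fl/+, in which Cre made from the Rank locus switches on eYFP in macrophages of embryonic origin and in their progeny. There were 4 sorted groups with 3 libraries each: eYFP+ macrophages (BM_embTRMp, of embryonic origin), eYFP- macrophages (BM_adTRMp, derived from adult haematopoietic stem cells), Ly6Chi monocytes and Ly6Clo monocytes, all carrying the tracer alleles. The macrophages had been gated as F4/80hi CD206+ VCAM1+ cells. No source says whether equally numbered libraries shared a mouse, so the p-values measure only the spread between these libraries.

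Nr4a receptors bind DNA without a known physiological ligand, and Nr4a1, also called Nur77, is required for Ly6Clo monocytes, the patrolling cells that arise from Ly6Chi monocytes. Klf2 and Klf4 are zinc finger factors of the quiescent endothelium and of monocytes. The C/EBP factors are leucine zipper proteins of myeloid development: Cebpa opens the granulocyte and monocyte programme, Cebpb is needed for emergency granulopoiesis and for Ly6Clo monocytes, Cebpd is induced in inflammation, and Cebpe drives the late, granule-filling stages of neutrophils and eosinophils.

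Libraries held 26390927 to 48618187 read pairs assigned to genes. The sort was visible in its own markers: Ly6c2 was at 99157 to 118762 normalized counts in Ly6Chi libraries and at 581 to 1240 in Ly6Clo libraries, and the summed level of 11 macrophage markers was 48314 to 63981 TPM, a count scaled by transcript length and library total, in macrophages, 1354 to 3304 TPM in Ly6Clo and 537 to 586 TPM in Ly6Chi libraries. Ly6Clo replicate 2 stood apart. It had 16434 detected genes against 24769 and 22254 in the other Ly6Clo libraries, its 1294 most GC-rich transcripts were lower by a median log2 ratio of -1.24, and Csf1r was at 16344 normalized counts against 170934 and 168226. Of 7 dendritic cell markers, which summed to 2829 TPM against 623 and 604 TPM, Cd209a alone was higher in it (91254 normalized counts against 16230 and 16954), while the other 6 were lower than in both other Ly6Clo libraries, with Xcr1, Siglech and Ccr9 at 0. Among macrophages, eYFP- replicate 2 held 2034 TPM of 10 neutrophil markers, against 67.5 and 113 TPM in the other eYFP- libraries. For the 9 factors, calls within monocytes, within macrophages and between macrophages and monocytes that rest on these libraries are given with and without them. List results are given so in part. Among eYFP+ macrophages replicate 1 also differed, with 22496 detected genes against 27424 and 26858 in the others. Its GC-rich transcripts had a median log2 ratio of -0.72, against 0.37 and 0.39.

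Between the monocyte subsets, 3 of the 9 factors differed at an adjusted p under 0.05 (DESeq2 Wald test, Benjamini-Hochberg adjustment over all genes tested), and all 3 were higher in Ly6Clo cells: Nr4a1, Nr4a2 and Klf4. Of 21567 genes tested in that comparison, 4.97% were called higher and 3.66% lower. No factor was called lower, while 1 had an unadjusted p under 0.05 in that direction, and edgeR called 2 factors higher (Nr4a1 and Klf4) and 0 lower. Dendritic cell markers moved in the same contrast, with 4 of 7 called higher and 1 lower in Ly6Clo cells (edgeR 2 and 0) and sums of 604 to 2829 TPM against 110 to 123 TPM in Ly6Chi cells, and their part in the results was not tested. Without Ly6Clo replicate 2, 4 of these markers were called higher and 0 lower. Over macrophages of both kinds 6 of the 9 factors were called lower than in monocytes, Cebpb and Cebpe besides Nr4a1, Nr4a2, Klf2 and Klf4 (edgeR 5). Of 22385 genes tested there, 15.0% were called lower and 20.3% higher. Between macrophages of the different origins 1 factor, Cebpe, was called, lower in eYFP+ cells (edgeR 0). There 1.88% of 21567 genes tested were called lower and 0.153% higher.

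**Figure D1:**
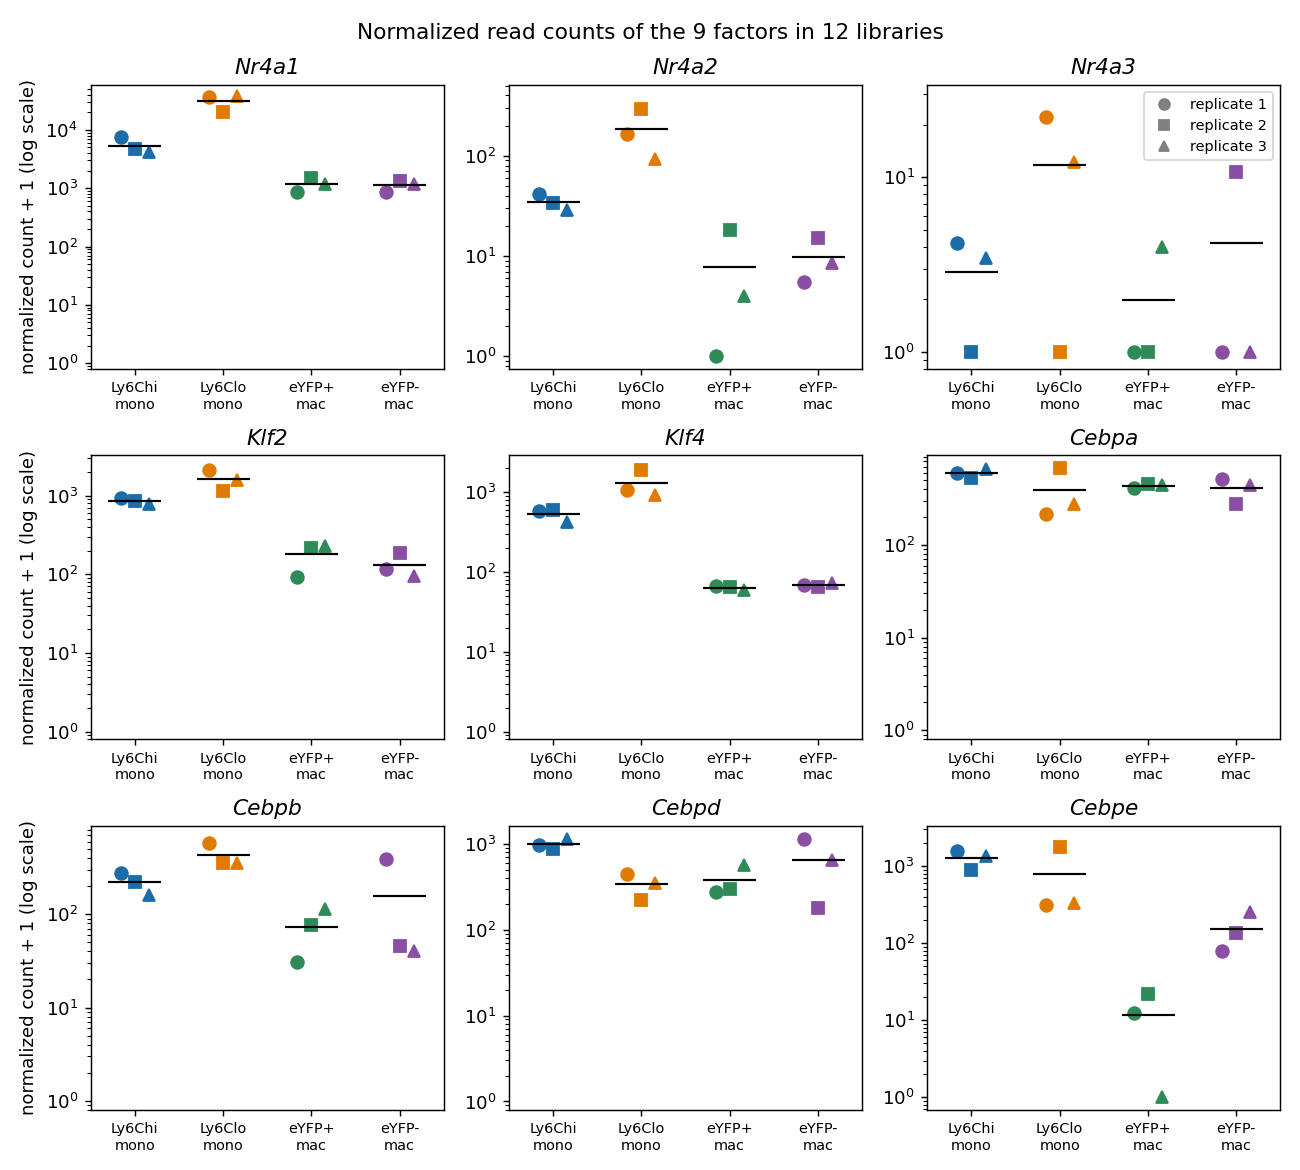
Normalized read counts plus 1 (log scale) of the 9 factors in each of the 12 libraries, with a bar at the group mean and marker shapes for the replicate number. The points of Nr4a1, Klf2 and Klf4 lie highest in Ly6Clo, lower in Ly6Chi and lowest in macrophage libraries, whereas Cebpa lies between 213 and 673 normalized counts throughout.

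Nr4a1 (ENSMUSG00000023034) had the highest TPM of the 9 factors in each of the 12 libraries, with 371 to 744 TPM in Ly6Clo monocytes and 15.4 to 30.6 TPM in macrophages. Its normalized count was 36980, 20654 and 37674 in the Ly6Clo libraries and 7462, 4625 and 4133 in the Ly6Chi libraries. Every Ly6Clo library lay above every Ly6Chi library, and the lowest Ly6Clo value came from replicate 2. The group means were 31769 ± 9632 and 5406 ± 1797 (SD, n = 3 each), a 5.88-fold difference (log2 fold change 2.55 ± 0.38 SE, adjusted p = 2.03e-09; edgeR adjusted p = 0.00207). Without Ly6Clo replicate 2 the log2 fold change was 2.79.

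Macrophages held little Nr4a1. The eYFP+ libraries had 853, 1486 and 1201 normalized counts and the eYFP- libraries 878, 1348 and 1203, so the macrophage groups overlapped fully. Nr4a1 was 4.58-fold lower in eYFP+ macrophages than in Ly6Chi monocytes (adjusted p = 1.08e-07) and 26.9-fold lower than in Ly6Clo monocytes (adjusted p = 5.82e-34). Between the macrophage groups the log2 difference was 0.05, with a 95% interval from -0.70 to 0.79.

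Nr4a2 and Nr4a3, the other receptors of the family, were rare. Nr4a2 (ENSMUSG00000026826), also known as Nurr1, was at 163, 293 and 91.4 normalized counts in Ly6Clo and at 40.3, 32.8 and 27.9 in Ly6Chi libraries, without overlap. The log2 fold change was 2.44 ± 0.81 (adjusted p = 0.0349), but edgeR gave an adjusted p of 0.199, and without Ly6Clo replicate 2, the highest library, the log2 fold change was 1.92 and the adjusted p 0.19. Leaving out any other monocyte library except Ly6Clo replicate 3 also ended the call, as did leaving out eYFP- replicate 3 (adjusted p from 0.0554 to 0.152). Macrophages had few Nr4a2 read pairs, 0 to 18 (eYFP+) and 5 to 19 (eYFP-).

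Nr4a3 (ENSMUSG00000028341), or Nor1, had no more than 25 read pairs in any library and none in 6 of the 12. A difference between groups was not detectable at this depth: the log2 fold change of Ly6Clo over Ly6Chi monocytes was 2.53, with an interval from -2.15 to 7.20. On the TPM scale, which allows for transcript length, Nr4a1 made up 98.9 to 100% of the family's summed level in every library.

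Klf4 (ENSMUSG00000003032) was likewise highest in Ly6Clo monocytes and lowest in macrophages. It reached 1072, 1882 and 937 normalized counts in Ly6Clo libraries and 588, 598 and 429 in Ly6Chi libraries, and the groups did not overlap. The 2.41-fold difference (log2 1.27 ± 0.33, adjusted p = 0.00324; edgeR adjusted p = 0.0317) was smaller than that of Nr4a1. Without Ly6Clo replicate 2, where Klf4 was highest, the log2 fold change was 0.90 (adjusted p = 0.00891). The call was lost when only the 6 monocyte libraries were fitted (adjusted p = 0.0716).

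In macrophages Klf4 varied little, from 58.5 to 72.0 normalized counts over 6 libraries. It was 8.58-fold lower in eYFP+ macrophages (adjusted p = 1.05e-17) and 7.90-fold lower in eYFP- macrophages (adjusted p = 1.55e-16) than in Ly6Chi monocytes. The difference between the macrophage groups was -0.12 on the log2 scale, with an interval from -0.82 to 0.58.

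Klf2 (ENSMUSG00000055148) was at 2123, 1139 and 1593 normalized counts in Ly6Clo and at 940, 859 and 786 in Ly6Chi libraries. Although the groups did not overlap, the log2 fold change of 0.91 (interval 0.08 to 1.74) did not pass adjustment over all genes (adjusted p = 0.182). It passed when the GC content and length of transcripts were corrected for (log2 fold change 1.10, adjusted p = 0.023). Without Ly6Clo replicate 2, where Klf2 was lowest in the group, it was not called (log2 fold change 1.11, adjusted p = 0.0652), nor was it on leaving out any other library. Macrophages had 91.6 to 229 normalized counts, 4.83-fold less in the eYFP+ group than in Ly6Chi monocytes (adjusted p = 1.25e-06) and 6.56-fold less in the eYFP- group (adjusted p = 3.98e-09).

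**Figure D2:**
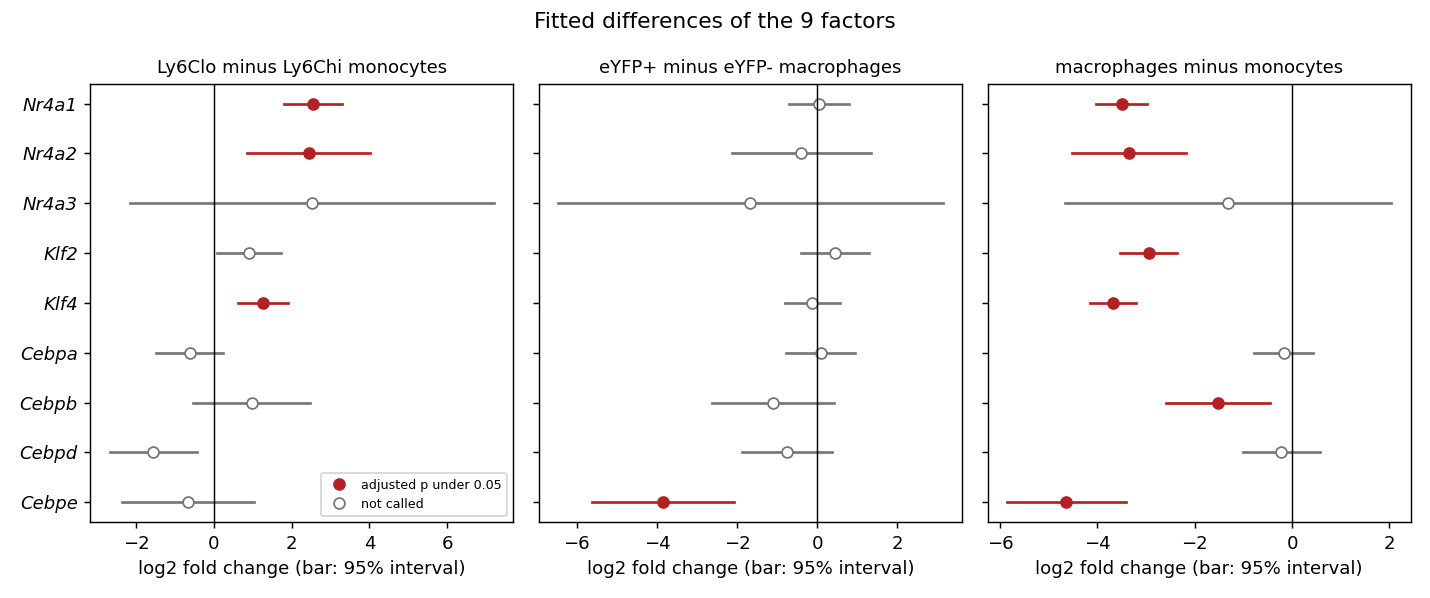
Fitted log2 fold changes of the 9 factors in the 3 main comparisons, with 95% intervals, filled where the adjusted p was under 0.05. The Nr4a1, Nr4a2 and Klf4 points lie right of 0 in the monocyte comparison and left of 0 in the macrophage against monocyte comparison, and only Cebpe is filled between the macrophage groups.

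The stretch before the start of transcription is shown for the 4 Nr4a and Klf genes that were higher in monocytes than in macrophages, and for Cebpa, which was not, so that the letters can be read beside the levels. The sequences are RefSeq promoters on GRCm38.p6, another build than the GRCm39 of the counts, and hold the 250 bases before the start, read 5′ to 3′ on the gene's strand. They lie at chr15:101266596-101266845 (plus strand) for Nr4a1, chr2:57124004-57124253 (minus) for Nr4a2, chr8:72318812-72319061 (plus) for Klf2, chr4:55532476-55532725 (minus) for Klf4 and chr7:35119043-35119292 (plus) for Cebpa. Capitals mark CGTCA or its reverse complement TGACG, the last and the first 5 letters of the cAMP response element (CRE), called the CRE core here.
Nr4a1: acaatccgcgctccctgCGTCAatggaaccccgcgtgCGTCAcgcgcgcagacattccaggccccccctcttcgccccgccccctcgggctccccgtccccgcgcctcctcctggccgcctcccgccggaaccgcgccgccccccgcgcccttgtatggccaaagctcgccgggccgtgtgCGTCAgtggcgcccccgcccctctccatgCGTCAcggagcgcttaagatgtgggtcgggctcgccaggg
Nr4a2: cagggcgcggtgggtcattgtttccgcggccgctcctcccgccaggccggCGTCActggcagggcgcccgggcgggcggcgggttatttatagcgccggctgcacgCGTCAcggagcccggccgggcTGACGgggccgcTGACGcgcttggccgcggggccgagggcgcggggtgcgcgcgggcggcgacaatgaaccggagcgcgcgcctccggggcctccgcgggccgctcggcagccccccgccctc
Klf2: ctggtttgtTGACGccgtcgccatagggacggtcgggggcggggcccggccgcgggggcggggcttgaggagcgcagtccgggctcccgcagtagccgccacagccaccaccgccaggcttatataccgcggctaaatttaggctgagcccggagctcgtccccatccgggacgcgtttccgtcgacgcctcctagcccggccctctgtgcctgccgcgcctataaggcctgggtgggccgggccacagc
Klf4: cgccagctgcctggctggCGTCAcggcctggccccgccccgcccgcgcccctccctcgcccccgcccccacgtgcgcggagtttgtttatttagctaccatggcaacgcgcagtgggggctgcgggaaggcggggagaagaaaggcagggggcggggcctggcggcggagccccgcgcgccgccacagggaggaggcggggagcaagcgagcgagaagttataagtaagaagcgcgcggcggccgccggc
Cebpa: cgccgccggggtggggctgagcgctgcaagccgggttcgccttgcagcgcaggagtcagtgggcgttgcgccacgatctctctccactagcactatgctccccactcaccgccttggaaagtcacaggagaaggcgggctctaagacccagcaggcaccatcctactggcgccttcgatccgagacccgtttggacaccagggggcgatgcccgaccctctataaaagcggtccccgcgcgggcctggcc

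The CRE core occurred 4 times each before Nr4a1, Nr4a2 and Nr4a3, 3 times before Cebpb, and once each before Klf2 and Klf4, and was not found before Cebpa. Of 32851 RefSeq promoters of the same length 17.8% held it, and of the 6582 that were at least as GC-rich as the lowest of these genes (63.6%) 28% did. The core was chosen after the sequences had been seen, and a link between it and the levels was not tested. Of the genes not displayed, Nr4a3 was called in no comparison and Cebpb was called lower in macrophages than in monocytes. The full CRE (TGACGTCA, in 1.55% of promoters), the NBRE that a single Nr4a receptor binds (AAAGGTCA, 1.34%), a C/EBP palindrome (TTGCGCAA, 0.164%), a CACCC box (CCACACCC, 3.20%) and the CArG box (1.47%), each searched on both strands, were in none of the 7 windows, and the TATA box (TATAAA, 12.4%) was in those of Nr4a2 and Cebpa. The full CRE contains the core. Promoters of Cebpd and Cebpe were not analysed here.

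None of the 4 C/EBP genes was called between the monocyte subsets by DESeq2 or edgeR with all libraries, and 1, Cebpd, had an unadjusted p under 0.05. Cebpa (ENSMUSG00000034957) was at 598, 528 and 656 normalized counts in Ly6Chi monocytes, at 213, 673 and 278 in Ly6Clo monocytes, at 411, 461 and 443 in eYFP+ macrophages and at 519, 274 and 444 in eYFP- macrophages. No neighbouring groups in the order of its levels passed the test. In the monocyte comparison 1 library decided the result: the log2 fold change was -0.62 (interval -1.48 to 0.25, adjusted p = 0.456) with all libraries and -1.28 without Ly6Clo replicate 2 (adjusted p = 0.00147; edgeR adjusted p = 0.0293). With the GC and length correction it was 0.21, of the opposite sign and not called.

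Cebpe (ENSMUSG00000052435) was split by the same library. The Ly6Chi libraries had 1549, 894 and 1355 normalized counts, and the Ly6Clo libraries 315, 1754 and 329, so that Ly6Clo replicate 2 was the highest of all 12 while the other Ly6Clo libraries lay below every Ly6Chi library. The log2 fold change was -0.66 (interval -2.36 to 1.03, adjusted p = 0.729) and became -1.98 without that library (adjusted p = 0.0497; edgeR adjusted p = 0.199). Cd209a, GC-rich transcripts and the number of detected genes given above differed in the same library, and their part in the result was not tested.

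**Figure D3:**
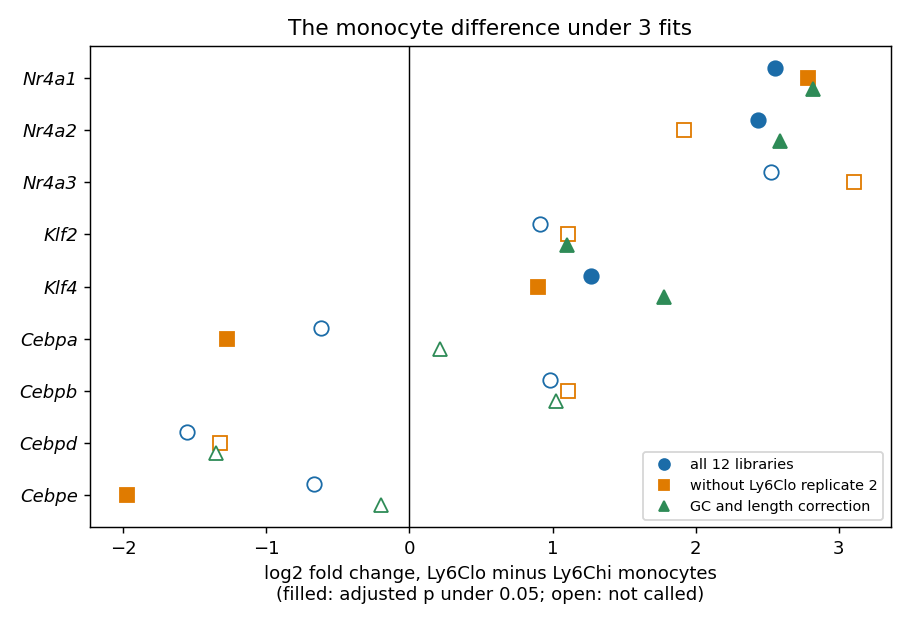
Log2 fold changes of Ly6Clo over Ly6Chi monocytes in the fit of all 12 libraries, without Ly6Clo replicate 2, and with the GC and length correction, filled where the adjusted p was under 0.05. Nr4a1 and Klf4 are filled in all 3, Cebpa moves from -1.28 to 0.21, Cebpe from -1.98 to -0.20, and Nr4a3 has no value with the correction.

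Cebpb (ENSMUSG00000056501) was at 587, 354 and 355 normalized counts in Ly6Clo and at 276, 220 and 162 in Ly6Chi libraries. The groups did not overlap, but the log2 fold change of 0.98 had an interval from -0.53 to 2.48 (adjusted p = 0.51). The macrophage libraries were spread widely, from 29.9 to 113 in the eYFP+ group and 386, 44.6 and 39.3 in the eYFP- group. Over both kinds of macrophage Cebpb was 2.88-fold lower than in monocytes (log2 -1.53 ± 0.54, adjusted p = 0.0172), which edgeR did not call (adjusted p = 0.0516). That call was also lost on leaving out any of 5 libraries, Ly6Chi replicate 1, Ly6Clo replicate 1, eYFP+ replicates 1 and 2 and eYFP- replicate 2 (adjusted p from 0.0507 to 0.0725). Without eYFP- replicate 1, the highest macrophage library, the log2 fold change was -2.47 (adjusted p = 6.0e-10), and that between eYFP+ and eYFP- macrophages, which was not called, went from -1.10 to 0.80.

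Cebpd (ENSMUSG00000071637) did not pass the test between the monocytes either. It was at 971, 873 and 1126 normalized counts in Ly6Chi and at 446, 221 and 343 in Ly6Clo libraries, again without overlap. The log2 fold change of -1.55 (interval -2.67 to -0.43) gave an adjusted p of 0.0675. It passed the threshold when only the 6 monocyte libraries were fitted (adjusted p = 0.00828) and when eYFP- replicate 1 or 2 was left out (0.0343 and 0.00572). In eYFP- macrophages replicate 1 was highest for Cebpd, with 1118 normalized counts against 176 and 637, as it was for Cebpb.

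On the TPM scale the make-up of the C/EBP transcripts differed from group to group, which is a description of these libraries. Cebpe made up 55.4 to 65.1% of the summed level of the 4 genes in Ly6Chi libraries, and Cebpa made up 42.7 to 60.4% in eYFP+ macrophages. In Ly6Clo replicates 1, 2 and 3 Cebpe made up 30.04, 72.0 and 38.0% and Cebpb 46.2, 12.0 and 33.7%. In the eYFP- macrophages Cebpe made up 7.67, 37.2 and 35.6%.

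**Figure D4:**
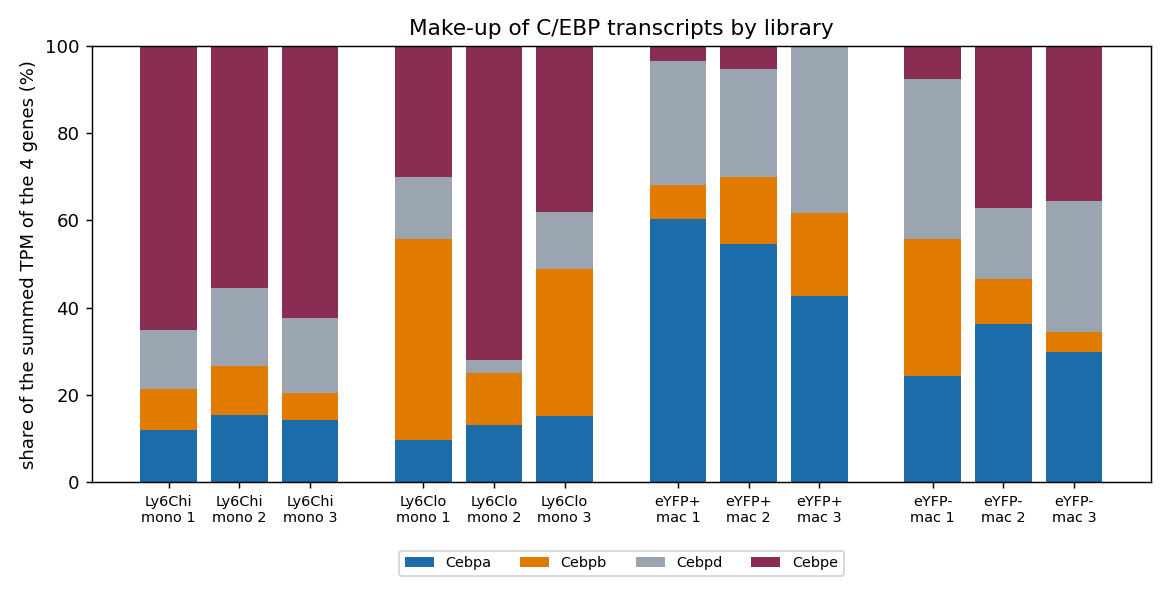
Share of Cebpa, Cebpb, Cebpd and Cebpe in their summed TPM, 1 bar per library. Cebpe fills over 55% of each Ly6Chi bar and at most 5.25% of each eYFP+ bar, and the Ly6Clo bar of replicate 2 stands apart with 72.0%.

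Of the 9 factors Cebpe alone was called between the macrophages of the 2 origins, where 0.153% of 21567 genes were called higher and 1.88% lower in eYFP+ cells. It had 11, 22 and 0 read pairs in the eYFP+ libraries, or 11.3, 21.0 and 0 normalized counts, where the 0 allows up to 2.22 normalized counts (3 read pairs, counting error only). The eYFP- libraries had 77.6, 133 and 250 normalized counts, all above the eYFP+ libraries. The fitted difference was 14.4-fold (log2 -3.85 ± 0.90, adjusted p = 0.00228). Its size depended on single eYFP+ libraries, being -4.82 on the log2 scale without replicate 2 (adjusted p = 0.000606) and -3.25 without replicate 3 (adjusted p = 0.0065). The difference stayed called in both of these fits. EdgeR gave a like log2 fold change of -3.88 but an adjusted p of 0.17, and the call was lost without eYFP- replicate 3 (log2 -3.30, adjusted p = 0.0749). Without eYFP- replicate 2, the library with neutrophil markers, the log2 difference was -3.95 (adjusted p = 0.0118).

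Transcripts of granule proteins, which C/EBP factors are known to control, were read beside Cebpe. Of the primary granule genes 5 of 6 were in the table, and 3 were called lower (edgeR 1) in eYFP+ than in eYFP- macrophages, among them Prtn3 (proteinase 3, log2 -3.84 ± 0.51, adjusted p = 5.87e-11) and Mpo (myeloperoxidase, log2 -4.49 ± 0.73, adjusted p = 4.82e-07). Their summed level was 206, 699 and 828 TPM for eYFP- and 12.9, 59.4 and 10.6 TPM for eYFP+ cells, so the order of the eYFP- libraries was the order of their Cebpe. The median log2 fold change of the list was -4.34, against 0.05 over all genes tested. Of 9 secondary granule genes tested 3 were called lower (edgeR 0, 6 at an unadjusted p under 0.05). Without eYFP- replicate 2, 0 of 10 were called lower and 1 higher, and 2 of 5 primary granule genes were called lower. In bulk RNA, fewer cells of a type and less RNA per cell cannot be told apart.

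Markers of stem and progenitor cells moved with the same contrast. Of 8 such genes 3 were called lower in eYFP+ macrophages, including Cd34 (log2 -4.58 ± 0.67, adjusted p = 8.81e-09) and Flt3 (log2 -4.87 ± 0.83, adjusted p = 2.24e-06). All 8 together summed to 56.4 to 121 TPM across the eYFP- group, with each gene above 0, against 5.43 to 12.8 TPM across the eYFP+ group. Erythroid markers were also higher in the eYFP- libraries (23043 to 36762 TPM against 9154 to 14988 TPM), with 3 of 10 genes called, Klf1 being one. Monocyte markers summed to 88.4 to 181 TPM in the eYFP- group and to 38.4 to 50.8 TPM in the eYFP+ group, and 4 of 6 tested were called lower in eYFP+ cells. Dendritic cell markers, with 3 of 7 called lower, summed to 20.3 to 35.6 TPM and to 3.95 to 10.9 TPM. EdgeR called 1 stem and progenitor, 0 erythroid, 2 monocyte and 0 dendritic cell genes lower. Of the other lists, 2 of 9 neutrophil, 1 of 8 eosinophil, basophil and mast cell, 2 of 8 endothelial, 0 of 6 B cell, 1 of 9 T and NK cell and 1 of 5 megakaryocyte markers were called lower, and none was called higher. Without eYFP- replicate 2, 0 of 9 neutrophil markers were called lower, and their median log2 fold change went from -2.38 to 0.96. In that fit 2 of 7 stem and progenitor, 3 of 10 erythroid, 4 of 8 monocyte and 3 of 7 dendritic cell markers were called lower. A single monocyte marker was called higher there. The part of these other cells' transcripts in the Cebpe result was not tested.

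In the monocytes all 5 primary granule genes were lower in Ly6Clo than in Ly6Chi monocytes (edgeR 4, median log2 fold change -5.68 against -0.02 over all genes), with Prtn3 at -5.47 ± 0.51 (adjusted p = 2.74e-24) and Mpo at -5.68 ± 0.73 (adjusted p = 1.26e-12), and all 5 stayed lower without Ly6Clo replicate 2. Their sum was 966 to 1555 TPM in Ly6Chi and 5.84 to 22.5 TPM in Ly6Clo libraries. The smallest sum, 5.84 TPM with 3 of the 5 genes at 0, was in Ly6Clo replicate 2, the library with the most Cebpe. Secondary granule genes summed to 10539 to 12257 TPM in Ly6Chi and still 4398 to 7299 TPM in Ly6Clo libraries, and of 9 tested 2 were called higher (Ly6g and Mmp9) and 1 lower (Chil3) in Ly6Clo cells, while edgeR called 0 and without Ly6Clo replicate 2 none of 5 tested was called. Neutrophil markers summed to 14994 to 22585 TPM in Ly6Chi and 6776 to 16002 TPM in Ly6Clo libraries, and their part in the level of Cebpe was not tested.

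**Figure D5:**
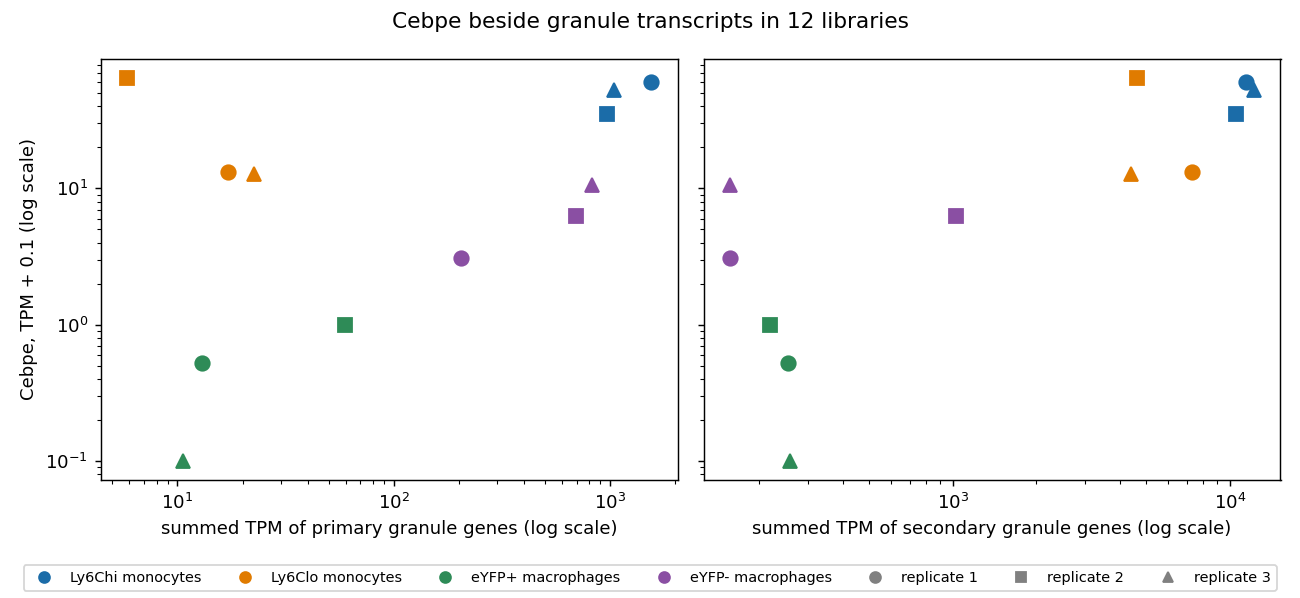
Cebpe (TPM + 0.1, log scale) against the summed TPM of 5 primary (left) and 10 secondary (right) granule genes (log scale), with colours for the groups and shapes for the replicate number. Ly6Clo monocytes hold 12.7 to 64.7 TPM of Cebpe at 5.84 to 22.5 TPM of primary granule genes, where eYFP+ macrophages with 10.6 to 59.4 TPM hold at most 0.890 TPM of Cebpe.

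Over macrophages and monocytes as wholes, the 6 factors called were all lower in macrophages, Nr4a1 by a log2 fold change of -3.50 ± 0.27, Nr4a2 by -3.35 ± 0.60, Klf2 by -2.95 ± 0.30, Klf4 by -3.68 ± 0.24, Cebpb by -1.53 ± 0.54 and Cebpe by -4.64 ± 0.62. Adjusted p-values ran from 8.07e-50 for Klf4 to 0.0172 for Cebpb. Over the other settings Nr4a2 ran from -3.76 to -0.97 and Cebpe from -5.15 to -3.45. Without single libraries they ran from -4.36 to -3.06 and from -5.12 to -4.04, and both stayed called. In this comparison 15.0% of 22385 genes tested were called lower and 20.3% higher in macrophages. Cebpa (-0.18, interval -0.79 to 0.44) and Cebpd (-0.23, interval -1.02 to 0.57) were not called. Markers of other cells moved in the same contrast: 8 of 9 neutrophil markers (median log2 fold change -5.61) and 9 of 9 secondary granule genes (median -6.38) were lower in macrophages, and 10 of 10 erythroid markers were higher (median 4.43). Also higher were 6 of 8 endothelial, 6 of 9 T and NK cell and 3 of 8 eosinophil, basophil and mast cell markers. Of 5 megakaryocyte markers 3 were higher and 1 lower. The part of these markers' cells in the results for the factors was not tested. No factor was called higher, none had an unadjusted p under 0.05 in that direction, and edgeR called 0 higher and 5 lower.

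The 4 cross pairs share their libraries with the comparisons above and with each other. Of the 9 factors 5 were lower in eYFP+ macrophages than in Ly6Chi monocytes, where 10.6% of all genes tested were called lower, and 6 were lower than in Ly6Clo monocytes (12.2%). In eYFP- macrophages 4 were lower than in Ly6Chi monocytes (11.1%) and 5 were lower than in Ly6Clo monocytes (10.8%). Nr4a1, Klf2, Klf4 and Cebpe were called in each of these 4 pairs by DESeq2 with all libraries. Cebpe was 119-fold lower in eYFP+ macrophages than in Ly6Chi monocytes (log2 -6.89 ± 0.90) and 8.24-fold lower in eYFP- macrophages (log2 -3.04 ± 0.87). Its difference between eYFP- macrophages and Ly6Clo monocytes (log2 -2.38, adjusted p = 0.0271) was not called by edgeR (adjusted p = 0.0848), nor without Ly6Clo replicate 2 (log2 -1.12, adjusted p = 0.247) or eYFP- replicate 1 or 2 (adjusted p = 0.131 and 0.0879). Over all 6 pairs of groups and 9 factors, 24 of 54 differences were called. Of all genes tested, the calls ran from 439 of 21567 between the macrophage groups to 5804 of 20749 between eYFP+ macrophages and Ly6Clo monocytes. The 54 tests reuse the same 12 libraries.

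Relatives of these factors were examined from lists that held none of the 9. Of 15 other Klf genes 12 passed the filter on low counts in the monocyte comparison, and 2 were called higher in Ly6Clo cells, Klf15 and Klf7 (log2 1.29 ± 0.40, adjusted p = 0.0216). Klf15 had no reads in any Ly6Chi library and 23, 0 and 24 normalized counts in the Ly6Clo libraries. EdgeR called 0 in either direction, where 4 had an unadjusted p under 0.05, all higher, and without Ly6Clo replicate 2 DESeq2 called 1. In macrophages against monocytes 9 of 12 were lower, as Klf2 and Klf4 were, with Klf13 (log2 -3.15 ± 0.24) and Klf10 (log2 -1.42 ± 0.20) first by adjusted p, and 3 were higher, Klf15, Klf7 and the erythroid factor Klf1. Of the C/EBP relatives Ddit3, the stress-induced factor CHOP, was higher in Ly6Clo than in Ly6Chi monocytes (log2 1.37 ± 0.37, adjusted p = 0.00511) and higher in macrophages than in monocytes (log2 0.89 ± 0.26, adjusted p = 0.00296), while Cebpg was lower in macrophages (log2 -1.38 ± 0.25, adjusted p = 4.19e-07).

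Nr4a1 is also an immediate-early gene, one transcribed within minutes of a stimulus. Of 22 other immediate-early genes 2 were called higher in Ly6Clo than in Ly6Chi monocytes, the phosphatase gene Dusp1 (log2 2.20 ± 0.38, adjusted p = 4.32e-07) and Nfkbiz (log2 1.62 ± 0.44, adjusted p = 0.00468), and 0 were called lower. At an unadjusted p under 0.05 there were 6 higher and 1 lower, and edgeR called 1 higher and 0 lower. Without Ly6Clo replicate 2, 3 were higher and 1 lower. The median log2 fold change of the list was 0.52, against -0.02 over all genes tested. In macrophages 12 of the 22 were lower than in monocytes, with Fosl2 (log2 -2.53 ± 0.22) and Ier2 (log2 -2.91 ± 0.26) first, and 6 were higher, with Ier3 (log2 1.26 ± 0.28) and Egr1 (log2 1.35 ± 0.34) first. Of 7 heat-shock genes tested in the monocyte comparison 0 were called by DESeq2 or edgeR, and 3 had an unadjusted p under 0.05.

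The genes that mark the monocyte subsets gave the setting. Of 16 Ly6Clo monocyte genes 12 were higher in Ly6Clo cells (median log2 fold change 3.23), led by the scavenger receptor gene Cd36 (log2 5.87 ± 0.41, adjusted p = 7.08e-43) and Pparg (log2 5.14 ± 0.38, adjusted p = 1.29e-37), and of 11 Ly6Chi monocyte genes tested 7 were lower, F13a1 (log2 -5.42 ± 0.54) among them. Without Ly6Clo replicate 2 these counts were 10 of 15 and 6 of 9. Genes of the Ly6Clo list went both ways in that library. Pou2f2 and S1pr5, at 1818 and 3151 normalized counts in it, were at 8071 to 8695 and 24896 to 26445 in the other Ly6Clo libraries. Itgal and Treml4, at 100273 and 65740 in it, were at 39980 to 43411 and 26720 to 33066 in the others. The summed level of the list was 8482 TPM in replicate 2, against 7949 and 8339 TPM. Of the 11 macrophage markers 9 were also higher in Ly6Clo than in Ly6Chi monocytes, and none of the 11 was at 0 in any library. Nr4a1, Klf2 and Klf4 were lower in macrophages than in either monocyte group.

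Of 20 other myeloid transcription factors 4 were higher and 1 lower in Ly6Clo monocytes, with Bhlhe40 (log2 3.41 ± 0.33, adjusted p = 9.83e-23) and the liver X receptor gene Nr1h3 (log2 2.57 ± 0.31, adjusted p = 2.25e-14) first among those higher, and Rxra (log2 -1.62 ± 0.47, adjusted p = 0.0116) lower. EdgeR called 3 higher and 0 lower (Rxra, adjusted p = 0.0659), and 3 had an unadjusted p under 0.05 in the lower direction. Without Ly6Clo replicate 2, 3 were called higher and 1 lower. Rxra encodes a partner of Nr4a1 and Nr4a2 in heterodimers. Between macrophages and monocytes 8 were higher and 8 lower, with Nr1h3 and Maf among the former and Nfil3 and Irf4 among the latter. Of 6 receptor genes for growth factors and endotoxin, Tlr4 and Cd14 were higher in macrophages (log2 2.91 ± 0.22 and 2.23 ± 0.34) and Csf3r and Csf2ra were lower (log2 -2.25 ± 0.22 and -1.77 ± 0.28).

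Finally, the genes whose pattern over the 12 libraries was most like each factor's were found by the root-mean-square difference of centred log2(TPM + 1) values, among 11003 genes (11004 for Nr4a2) with a mean of at least 1 TPM. For Nr4a1 they were Mirt1 (difference 0.36), Il31ra (0.51) and Trem1 (0.52). Trem1, which encodes an activating receptor of myeloid cells, averaged 34.2 TPM in Ly6Clo monocytes, 6.72 in Ly6Chi monocytes, 0.278 in eYFP+ and 0.499 in eYFP- macrophages. Nr4a1 itself averaged 608, 102, 24.0 and 23.8 TPM in these groups. Adding 1 TPM before the log compresses the near-0 macrophage levels of Mirt1, Il31ra and Trem1, so their likeness to Nr4a1 depends on that setting. For Klf4 they were Lrrfip1 (0.26), Btg1 (0.26) and Ier2 (0.29), and for Klf2 Nfkbiz (0.38), Mef2c (0.39) and again Lrrfip1 (0.39). For Cebpe they were Rgs18 (0.47), Btla (0.54) and Nfe2 (0.68), and for Cebpb Ripk2 (0.60), Msra (0.61) and Adora2a (0.63). The difference grows with a factor's own spread (SD 2.15 for Cebpe and 1.47 for Klf2), so it does not rank the factors against each other. Nr4a2, whose level was near 0 in most libraries, was nearest to Cers4 (0.22), Pinx1 (0.22) and Ccm2 (0.22).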

How the data were processed

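Polyadenylated RNA of 12 sorted samples was turned into cDNA, tagmented and sequenced as read pairs by the authors. The deposited count table holds raw read counts per Ensembl gene, which the authors made with bcl2fastq 2.20.0.422, adapter and quality trimming, segemehl and featureCounts on GRCm39, from read pairs aligned unambiguously to exons. Whether counting used strand is not given in the sources used here, so antisense transcripts cannot be told apart. The deposited TPM table holds TPM values (counts scaled by transcript length and library total) and was used for levels between genes. A variance-stabilised table was not used, and 0 per-sample columns lacked a sample.

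The counts of all 12 libraries were fitted once with DESeq2 1.42.0 (Wald test, median-of-ratios size factors, 4 group means, default filtering, adjusted p threshold 0.05). Normalized counts are counts divided by size factors. The macrophage against monocyte contrast weighed the groups equally. Alternatives used edgeR 4.0.16 (quasi-likelihood test), limma 3.58.1 on log2(TPM + 1) or log2(TPM + 0.1), other size factors and filters, a GC and length correction, a replicate block and leaving out each library. The edgeR test without Ly6Clo replicate 2 was added after the data were seen. Intervals are 95% (1.96 SE). The statistics were tested on simulated data. Libraries held 26390927 to 48618187 counts, and limits given for a count of 0 cover counting error only.

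The 9 genes and all lists were chosen with earlier results of these data known. All 9 are named. From a list, the 2 called genes with the lowest adjusted p in each direction and a mean of at least 50 normalized counts were named, plus genes that a sentence on a member needed, and the 3 most alike genes for each called member. GRCm38 annotation gave GC content and length only (96.4% of genes tested). A gene that this rule would name is not reported here.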

Additional observations from a re-analysis of the deposited data

How the results depend on the processing

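The 27 log2 fold changes (9 factors, 3 main comparisons) were recomputed under up to 15 other settings (14 between macrophages and monocytes) and without each of the 12 libraries, where Nr4a3 had no value in some of these fits. Of 387 values under the settings 360 kept their direction and their side of the threshold, as did 292 of 316 without a library, and no called factor changed sign. Nr4a1 stayed called in both comparisons where it was called, from a log2 fold change of 2.40 to 2.86 between the monocytes. In the monocyte comparison edgeR with a replicate block called 1 factor, Nr4a1, in place of 3, and the block with DESeq2 called 3 (Cebpd, at adjusted p = 0.03, in place of Nr4a2). Same-numbered libraries deviated together in part only (correlations over the 2000 most abundant genes of 0.28, 0.07 and -0.03 for the monocyte pairs and 0.39, 0.21 and 0.07 for the macrophage pairs). Differently numbered libraries were not compared in this way, so these values cannot decide whether the numbers pair the samples. The main fit treated the samples as unpaired. Without each library in turn 2 to 4 factors were called between the monocytes, 0 to 1 between the macrophages, 5 to 6 between macrophages and monocytes, and 22 to 28 over the 6 pairs of groups. Between the macrophages 0 factors were called by edgeR, by edgeR with the replicate block (Cebpe, adjusted p = 0.278), by limma on log2(TPM + 1) (0.0699) and log2(TPM + 0.1) (0.0532), and without eYFP- replicate 3. Over all genes the monocyte comparison gave 1860 calls and edgeR 829, or 537 with a replicate block, and the macrophage comparison gave 439 and edgeR 64, with 1155 under DESeq2 with the block. The cause of these changes was not tested. Ly6Clo replicate 2, with the fewest counts and detected genes, changed the call of Cebpa, Cebpe and Nr4a2 between the monocytes when left out.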
